A study of Homo sapiens with 4 samples.

Results

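Genomic sites called for 3 chromatin-associated proteins at once were described in HepG2 cells, an established line from a human liver tumour. A site was taken when a SATB1 peak overlapped, by at least 1 bp, both a peak of the SMRC1 list and a peak of the NFIC list (build hg19). The members were thus chosen by the positions of called peaks in all 3 libraries. This gave 854 sites among 3296 SATB1 peaks, or 25.9% of that list (exact Clopper-Pearson 95% interval 24.4 to 27.4, counting error only). They rest on 828 distinct SMRC1 peaks of 29441 and 835 distinct NFIC peaks of 13643, taking at each site the strongest overlapping peak of each list. The 3 lists together held 46380 peaks.

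Each antibody was used on 1 library of HepG2 chromatin crosslinked with 1% formaldehyde for 10 min, and no other treatment is named. The libraries are SMRC1, SATB1 and NFIC. An input library is also named and was not analysed here. The series was made to set the study's own antibodies beside published profiles from commercial ones, which were not used here. The groups are 1 cell line with 1 library per antibody, so no value below has a replicate spread, and no difference was tested. Whether HepG2 cells express each protein was not measured.

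The name SMRC1 stands in protein databases for SMARCC1, also called BAF155, a scaffold subunit of the SWI/SNF remodelling complexes, which use ATP to move or evict nucleosomes at promoters and enhancers. NFIC belongs to the nuclear factor I family, whose dimers bind a palindromic DNA element and which is active at many liver enhancers. SATB1 binds AT-rich DNA, folds chromatin into loops and is best known from thymocytes. All 3 proteins can be found at open regulatory DNA, and a ChIP peak can reflect direct DNA contact or crosslinking through a partner.

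The rule asks for overlap with each partner and not for a stretch common to all. At 849 of the 854 sites the SATB1 peak and its strongest SMRC1 and NFIC partners had at least 1 base in common, and the median common stretch was 340 bp (quartiles 296 and 422.75). At the other sites the SATB1 peak touched its partners at different places. The SATB1 summit, the position with most reads, lay inside the SMRC1 partner at 841 sites (98.5%) and inside the NFIC partner at 741 (86.8%).

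The leading 12 sites were taken by the sum of the ranks of the 3 peaks by −log10 q, where q is the authors' false discovery rate of a peak. The SMRC1 and NFIC lists are longer than the SATB1 list, so the sum gives more weight to their ranks, and strong SMRC1 and NFIC peaks among these sites follow from the order. The fold is the authors' ratio of reads at the summit, scaled for depth, to local background, with 1 added to each. SMRC1 reads were scaled by 0.776, NFIC reads by 0.993 and SATB1 reads by 1, and the reads printed here are unscaled. Fold values of different lists are not on 1 scale, because each list comes from its own antibody and library.

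The site with the lowest rank sum, chr10:60228322-60228716 in band q21.1, had a SATB1 fold of 4.78, an SMRC1 fold of 23 and an NFIC fold of 20.7. Its summits held 31 SATB1, 222 SMRC1 and 166 NFIC reads and lay within 22 bp of each other. It ranked 584 in the SATB1 list, 22 in the SMRC1 list and 55 in the NFIC list, so its SATB1 peak was the least prominent of the 3. At chr14:39901791-39902140 (q21.1) the NFIC peak was the least prominent within its own list. There the SATB1 peak ranked 66, the SMRC1 peak 133 and the NFIC peak 480, with folds of 3.79, 6.22 and 6.02. Because the lists differ in length, these ranks are percentiles of 98.0, 99.6 and 96.5. The SATB1 and NFIC summits were 32 bp apart, and the SMRC1 summit lay 424 bp from that of SATB1.

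The chr14:35873271-35874303 site (q13.2) was a broad one, with peaks of 1033 bp for SATB1, 2087 bp for SMRC1 and 1653 bp for NFIC. Its folds were 2.93, 5.35 and 5.93, and its 98 SATB1 reads stood over a local background of 32.8, the highest at any shared SATB1 peak. The site at chr6:155649964-155650334 (q25.3) held the SMRC1 peak of rank 6, with 367 reads and a fold of 17.6, beside 48 SATB1 and 155 NFIC reads. Its 3 summits spanned 42 bp. The plot of the leading sites shows that both the width of the SATB1 peak and its place within the SMRC1 peak differed from site to site.

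Among the other leading sites, chr16:50501903-50502663 (q12.1) had the best-ranked SATB1 peak (58, fold 4.51). Its SMRC1 fold was 10.2 and its NFIC fold 6.13. Sites on chromosome 2 at 102183219 to 102183551 (q11.2) and at 54053885 to 54054259 (p16.2) looked alike. Their SATB1 folds were 2.88 and 3.01, their SMRC1 folds 8.35 and 9.31, and their NFIC folds 7.37 and 7.14. The chr9:98268153-98268534 site (q22.32) had SATB1, SMRC1 and NFIC folds of 5.53, 12.9 and 9.58. It was 1 of 4 among the leading 12 that lay in the highest decile of all 3 lists.

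At chr10:29228427-29228827 (p12.1) the SMRC1 and NFIC summits lay 589 and 486 bp to the same side of the SATB1 summit, and 71 bp of the SATB1 peak touched the NFIC peak. That was the most offset of the leading 12. At chr6:36953975-36954338 (p21.2) SATB1 ranked 77 (percentile 97.7), with 64 reads, while NFIC ranked 1437 (percentile 89.5). The chr20:30195160-30196630 (q11.21) and chr17:76417575-76418174 (q25.3) sites completed the set, with SATB1 folds of 2.98 and 3.56, SMRC1 folds of 7.11 and 9.95 and NFIC folds of 4.85 and 6.95.

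**Figure D1:**
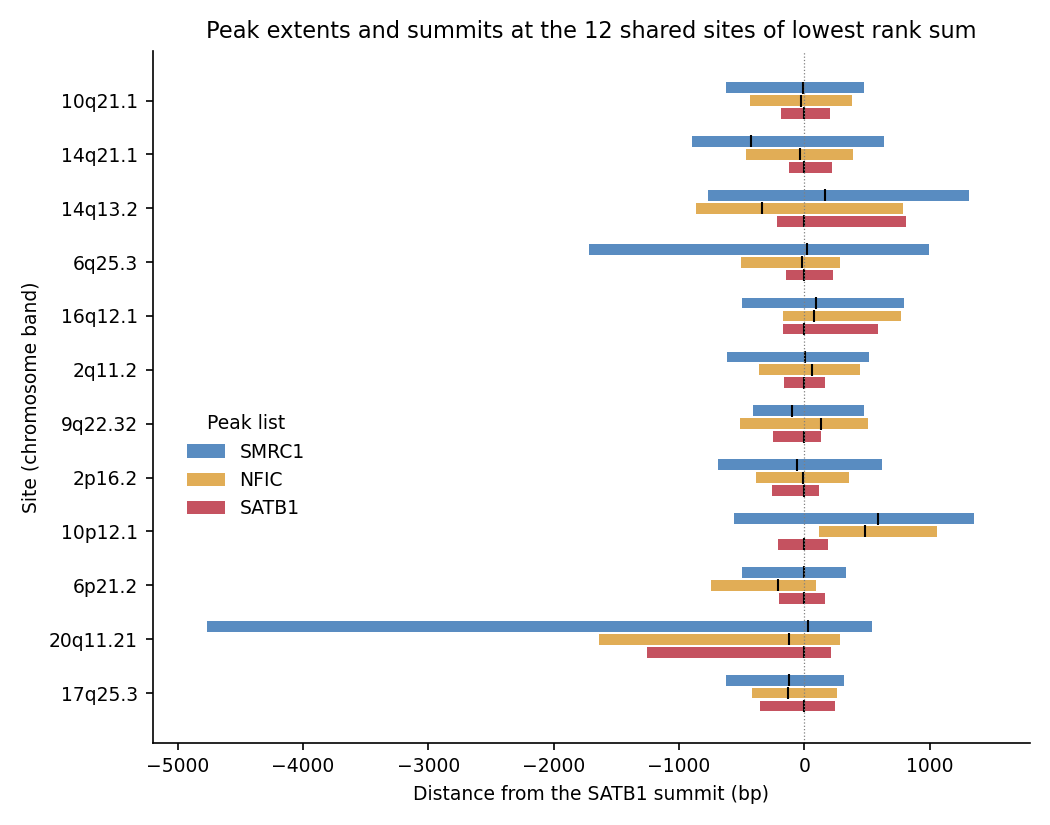
Extents of the SMRC1, NFIC and SATB1 peaks (bars) and their summits (black ticks) at the 12 shared sites of lowest rank sum, in bp from the SATB1 summit, with 1 row of 3 bars per chromosome band. The SATB1 peak lay wholly inside both other peaks at 8 of the 12, and the SMRC1 peak at 20q11.21 reached 5308 bp.

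The SMRC1 peaks of the shared sites were mostly in the upper part of their list, while the SATB1 peaks were ordinary ones. The median SMRC1 partner stood at percentile 84.8 of the SMRC1 list by −log10 q (quartiles 65.9 and 95.0), with a median fold of 5.46. Strength was not particular to the shared sites. The 6084 SMRC1 peaks with NFIC and without SATB1 had a median percentile of 74.5 and a median fold of 5.05. Of the 828 SMRC1 partners, 328 (39.6%, interval 36.3 to 43.0) were in the highest decile, against 10% of the whole list by construction, and 485 (58.6%) had a fold of at least 5, against 29.3% of the whole list. A −log10 q of at least 10 was reached by 688 (83.1%), against 43.7%. Overlap chose these peaks, and a wider peak has more bases to be touched, so these shares only describe the set.

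For SATB1 the same counts stayed near those of the list. Its highest decile held 99 of the 854 peaks (11.6%, 9.52 to 13.9), against 10%. A −log10 q of at least 10 was reached by 138 (16.2%), against 13.8%, and a fold of at least 5 by 62 (7.26%), against 9.44%. In the share of the highest decile, the NFIC partners lay between the SATB1 and SMRC1 peaks. Of 835, 147 (17.6%, 15.1 to 20.4) were in the highest decile, against 10%, and 437 (52.3%) had a −log10 q of at least 10, against 46.3%. A fold of at least 5 was seen in 271 (32.5%), which is below the 47.2% of the NFIC list.

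**Figure D2:**
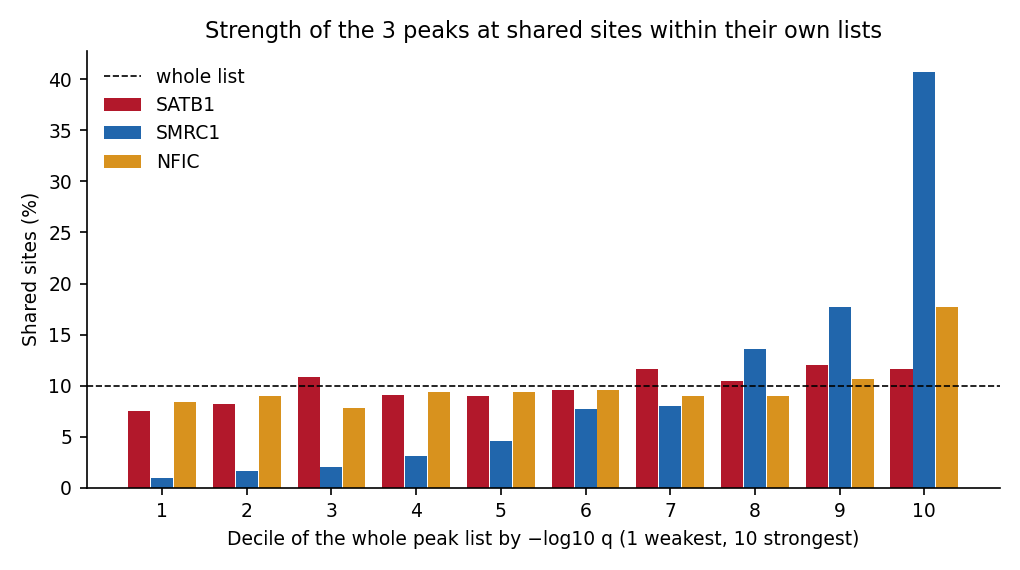
Percent of the 854 shared sites (y axis) whose SATB1, SMRC1 or NFIC peak fell in each decile of its own list by −log10 q (x axis, 1 the weakest and 10 the strongest), with the dashed line at the 10% of a whole list. SMRC1 peaks pile up in the highest decile (40.7% of sites), NFIC peaks reach 17.7% there, and SATB1 peaks stay between 7.49% and 12.1% throughout.

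The SMRC1 peak was in its highest decile at 40.7% of sites, the NFIC peak at 17.7% and the SATB1 peak at 11.6%. Without chromosomes 2, 6, 14, 16, 17 and 20 these shares were 33.1%, 14.6% and 8.60%, by deciles of the whole lists. All 3 peaks were in the highest decile of their lists at 11 sites (1.29%). Another 95 sites had 2 such peaks, 375 had 1 and 373 had none. Numbers expected from those single shares were not computed, so the counts here only describe the set. SMRC1 and NFIC were both in their highest decile at 61 sites, SATB1 and SMRC1 at 50, and SATB1 and NFIC at 17. Sites above the median of all 3 lists numbered 240 (28.1%), and 27 (3.16%) were below the median of all 3.

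NFIC strength was similar beside strong and weak SATB1 peaks. At the 85 sites with the best-ranked SATB1 peaks the median NFIC percentile was 63.2, and at the 85 with the worst it was 64.2. The median SMRC1 percentiles of these sets were 90.8 and 85.3. Ordered by SMRC1, the 85 strongest sites had a median NFIC percentile of 81.9 and a median SATB1 percentile of 66.6, and the 85 weakest had 47.0 and 49.3. Ordered by NFIC, the median SMRC1 percentile was 82.0 at the strongest and 78.0 at the weakest 85 sites.

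The strongest member of each list shows how uneven single sites were. The highest SATB1 fold among shared sites, 10.8, was at chr4:129474008-129474625 (q28.2), where SMRC1 had a fold of 11.4 and NFIC one of 4.49. The NFIC peak there ranked 9126. The next SATB1 folds were 8.90 at chr17:63556566-63557997 (q24.1), a site of 102 SATB1 reads, the most of any shared site, and 7.61 at chr1:180991854-180992439 (q25.3). NFIC folds at these were 4.25 and 4.13. The NFIC peaks at these ranked 3552 and 6167.

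By SMRC1 fold the first was again the site at 10q21.1, followed by chr9:84202901-84203611 (q21.32, SMRC1 fold 20.2) and chr9:136610660-136611131 (q34.2, 20.0). SATB1 folds at these sites were 3.64 and 4.68, and NFIC folds 6.33 and 12.8. The highest NFIC fold, 38.9, was at chr13:113951092-113951455 (q34), which also ranked 1 in the whole NFIC list. SMRC1 ranked 9133 there (percentile 69.0), with a fold of 4.87, and SATB1 ranked 1161 (percentile 64.7), with a fold of 3.72. NFIC folds of 28.9 and 21.9 followed at chr7:916151-916568 (p22.3) and chr4:8317410-8317921 (p16.1). SMRC1 folds were 5.81 and 7.87 at these sites, with ranks of 2311 and 11821 in the SMRC1 list. At 4p16.1 the high NFIC fold came from 55 reads over a background of 1.54, and the SATB1 peak there had 9 reads, the lowest number at any shared site.

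The presence of an NFIC peak beside SATB1 and SMRC1 went with the strength of the SMRC1 peak and hardly with that of the SATB1 peak. Of all 2586 SATB1 peaks at SMRC1 sites, 33% had an NFIC peak. Across quintiles of these peaks by SMRC1 strength the share was 16.2% (13.1 to 19.7), 24.6%, 28.2%, 36.6% and 59.6% (55.2 to 63.8), from weakest to strongest. Across quintiles by SATB1 strength it was 30.7% (26.7 to 34.9), 34.0%, 31.5%, 32.9% and 36.0% (31.8 to 40.3). By width of the SMRC1 peak the share went from 17.2% (312 to 572 bp) to 50.5% (1302 to 5308 bp). The rule asks the NFIC peak to touch the SATB1 peak, so SMRC1 width does not set how many bases it can touch. The local background under the SATB1 summit, the denominator of its fold, gave no such gradient. The shares by its quintiles were 33.7%, 30.4%, 32.0%, 33.8% and 35.4%. Without chromosomes 2, 6, 14, 16, 17 and 20, where that background was higher, the share by SMRC1 strength went from 14.2% to 51.0%. The part of peak width in this gradient was not tested.

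**Figure D3:**
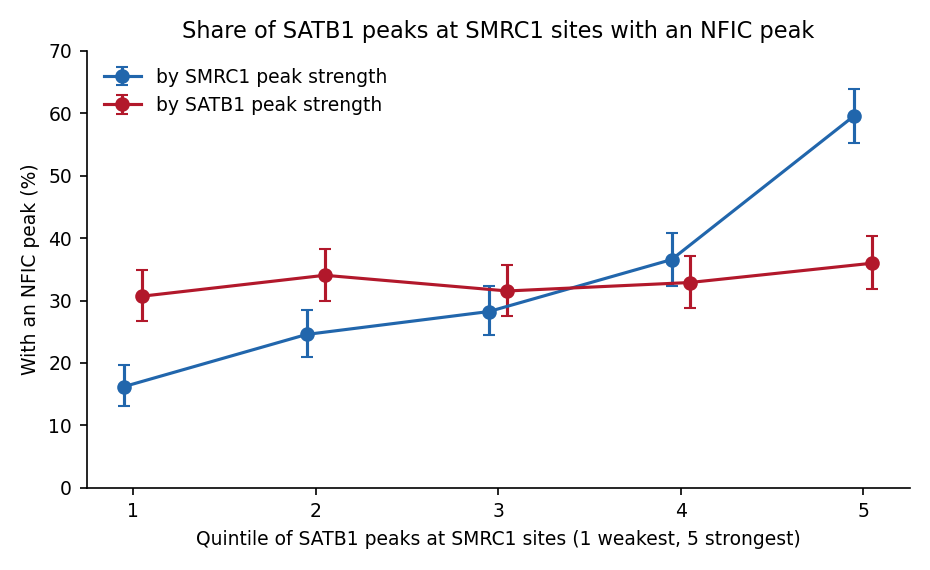
Percent of SATB1 peaks at SMRC1 sites that also overlap an NFIC peak (y axis) in quintiles of those peaks (x axis) ordered by the SMRC1 peak (blue) or by the SATB1 peak (red), both by −log10 q, with exact 95% intervals as bars. The blue points climb from 16.2% to 59.6%, and the red points stay between 30.7% and 36.0%.

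The nearest relatives of the shared sites are the 1732 SATB1 peaks at SMRC1 sites without NFIC. Their SATB1 peaks were much alike. Median SATB1 fold was 3.42 (quartiles 2.94 and 4.06) at shared sites and 3.41 (2.93 and 3.99) without NFIC, median reads at the summit were 34 and 33, and median widths 420 and 400 bp. The SMRC1 peaks under them were not. They had a median of 82 reads at shared sites (57 and 118) and 62 (47 and 85) without NFIC, with folds of 5.46 and 4.18 and widths of 1015.5 and 803 bp. Of the 828 SMRC1 partners, 21 are in both sets because they also hold a SATB1 peak without NFIC. The 662 SATB1 peaks in neither other list had fewer reads, with a median of 21 over a background of 4.38, against 34 over 9.21 at shared sites. Their median fold was higher, at 3.99 against 3.42, and 19.9% had a fold of at least 5, against 7.26% at shared sites.

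NFIC peaks at the shared sites can be set beside the 6233 NFIC peaks at SMRC1 sites without SATB1. They had a median of 46 reads and a background of 10.8, against 39 and 8.93, so that their median fold, 4.02, was close to the 4.22 of those peaks. Median NFIC widths were 576 and 510 bp. NFIC peaks in neither other list stood over a background of 3.39 and had a median fold of 5.6. Fold, reads and background come from 1 calculation, so these values are not independent of each other.

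Some peaks lay near the edge of the set. The smallest overlaps were 8 bp with NFIC at chr3:190284530-190284838 (q28), 12 bp at chr4:185394281-185394748 (q35.1) and 17 bp at chr12:42631458-42631917 (q12). NFIC folds at these were 4.02, 3.59 and 4.91, and SATB1 folds 4.01, 3.85 and 2.97. Just outside, NFIC peaks were separated by 4 bp from the SATB1 peak at chr16:24550879-24551289 (p12.1, NFIC fold 4.0) and by 21 bp at chr2:208576440-208576748 (q33.3, NFIC fold 7.47). At chr8:37756557-37756977 (p11.23) the gap was 29 bp and the NFIC fold 3.29. Of the 1732 peaks without NFIC, 22 (1.27%) had an NFIC peak within 100 bp and 129 (7.45%) within 1000 bp, and the median gap was 31026 bp.

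Within a site the SMRC1 peak was usually the widest. It was the widest of the 3 at 718 sites (84.1%), NFIC at 104 and SATB1 at 32, and the order SMRC1, NFIC, SATB1 held at 491 (57.5%). Median widths of the whole lists had the same order, with 607 bp for SMRC1, 490 bp for NFIC and 399 bp for SATB1. SATB1 peaks lay wholly within SMRC1 peaks at 709 sites (83%) and within NFIC peaks at 274 (32.1%). The NFIC peak lay wholly within the SMRC1 peak at 587 (68.7%). The 3 peaks together covered a median of 1094.5 bp. The widest shared SATB1 peak, 1974 bp at chr14:24114764-24116737 (q11.2), lay in an SMRC1 peak of 2163 bp with a fold of 2.60.

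The rule asks for overlapping peaks, which limits how far apart the 3 summits can lie, so their distances only describe the set. Median distances were 84 bp from SATB1 to SMRC1 (quartiles 35 and 209), 110 bp from SATB1 to NFIC (47 and 235.75) and 101.5 bp from SMRC1 to NFIC (42 and 238.75). All 3 lay within 100 bp at 242 sites (28.3%), within 200 bp at 465 (54.4%) and within 500 bp at 753 (88.2%), and 22 sites had them more than 1000 bp apart. SATB1 and SMRC1 summits were 86 bp apart in the median where NFIC was absent, close to the 84 bp of the shared sites. NFIC and SMRC1 summits were 84 bp apart where SATB1 was absent and 101.5 bp at shared sites, a difference that was not tested. At shared sites of a −log10 q of at least 5 in each list the distance was 76.5 bp. The peaks without SATB1 were not recomputed at that cut, so the 76.5 bp has no like value beside it.

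No protein held a fixed place among the summits. Where the 3 positions differed, at 838 sites, the middle one was that of SMRC1 at 324 (38.7%, 35.4 to 42.1), SATB1 at 288 (34.4%, 31.2 to 37.7) and NFIC at 226 (27.0%, 24.0 to 30.1). The closest pair was SATB1 with SMRC1 at 330 of the 850 sites with a single closest pair, SMRC1 with NFIC at 278 and SATB1 with NFIC at 242. The tightest site was chr19:54974263-54974669 (q13.42), with summits 1 bp apart and folds of 2.60 for SATB1, 3.48 for SMRC1 and 3.21 for NFIC. It was followed by chr16:12897177-12897887 (p13.12, 7 bp), where the folds were 4.66, 7.18 and 3.85, and chr17:27071052-27071398 (q11.2, 9 bp), with 3.78, 4.07 and 2.84. NFIC folds at these 3 sites were below the 4.02 of the median shared site. The median span was 130 bp at the 85 strongest sites by SATB1 and 224 bp at the 85 weakest. It was 149 and 275 bp by SMRC1, and 219 and 211 bp by NFIC.

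**Figure D4:**
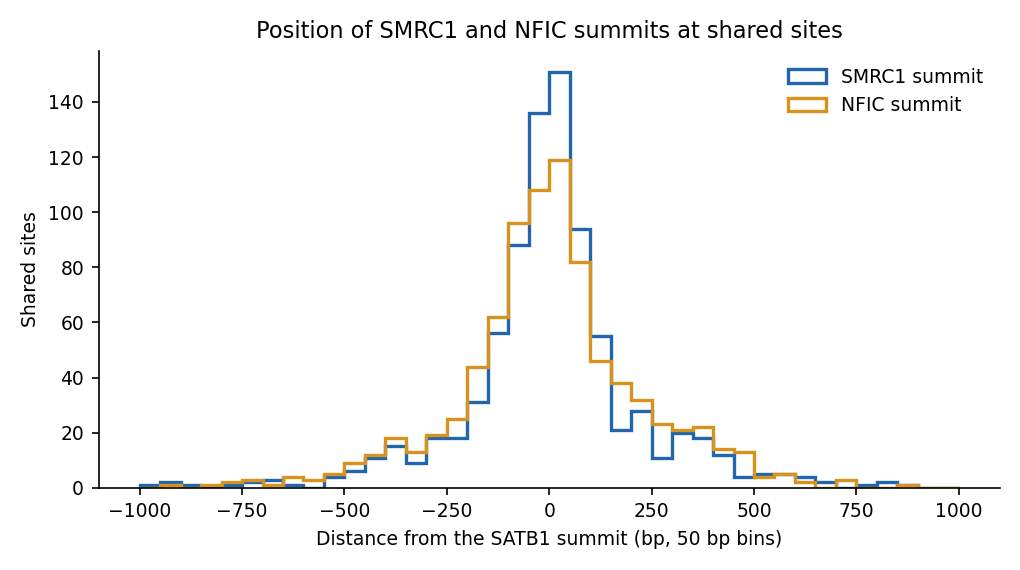
Number of shared sites (y axis) by the distance of the SMRC1 (blue) or NFIC (orange) summit from the SATB1 summit, in bins of 50 bp (x axis, in bp along the chromosome). Both peak at 0 and fall off on either side, and the axis leaves out 17 SMRC1 and 3 NFIC summits more than 1000 bp away. The overlap that the rule asks for limits these distances.

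Reads at the summits varied together across the 854 sites, and so did the background. Spearman's rho of log2 reads was 0.55 for SATB1 with SMRC1, 0.48 for SATB1 with NFIC (852 sites with both values) and 0.44 for SMRC1 with NFIC (852). Background values of different lists had a rho of 0.91 to 0.93, and within each list reads went with background (0.83 for SATB1, 0.64 for SMRC1 and 0.61 for NFIC). On the fold, which divides by that background, rho was 0.15, 0.14 and 0.12 for the same pairs. Points in these relations share a position and a cell line and may share a control, so the values are descriptions across sites.

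Shared sites lay on 23 chromosomes and in 395 bands, mostly apart from each other. The median gap to the next site was 1176 kb (quartiles 282 and 3980). Joining sites within 10 kb left 797 loci, of which 751 held 1 site, 39 held 2 and 7 held 3 or more. Unstained bands, the gene-rich part of the karyotype, carried 565 sites (66.2%), against 64.5% of SATB1 peaks, 58.6% of SMRC1 peaks and 58.5% of NFIC peaks. They had 0.433 sites per Mb, and the darkest bands 0.100. The darkest bands carried 5.85% of the shared sites, against 4.98% of SATB1, 6.74% of SMRC1 and 7.18% of NFIC peaks.

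The densest locus spanned 31007 bp of band 19p13.3 (chr19:1244764-1275770) and held 5 sites on 5 separate SMRC1 and 5 separate NFIC peaks. From left to right the SATB1 folds were 2.91, 5.64, 4.31, 4.88 and 2.62, and the SMRC1 folds 4.97, 7.98, 4.97, 5.02 and 4.14. NFIC folds were 2.22, 2.65, 3.50, 3.48 and 12.7, so the site with the highest NFIC fold had the lowest SATB1 and SMRC1 folds of the locus. In band 20q11.21, 4 SATB1 peaks lay on a single SMRC1 peak of 5308 bp, the widest of the SMRC1 list, with SATB1 folds of 2.82 to 3.79. The 2 sites farthest from that peak's summit had the largest summit spans of the set, up to 4452 bp. Another 4 sites, in 1q42.3, shared 2 SMRC1 peaks with folds of 9.22 and 10.8. SATB1 folds there were 2.73 to 3.53.

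Chromosomes 2 and 17 carried the most shared sites. Chromosome 2 held 111 shared sites among 336 SATB1 peaks (33.0%) and chromosome 17 held 88 among 263 (33.5%). Over the whole SATB1 list the share was 25.9%. Band 17q25.3 alone held 24, the most of any band, among 52 SATB1 and 200 SMRC1 peaks. Per Mb, chromosome 17 led with 1.08 sites, followed by 20 with 0.762 and 19 with 0.744, and chromosome 2 had 0.456. Of the SATB1 peaks on 20 and 19, 28.2% and 23.4% were shared, so these densities also reflect the number of peaks in the list. An NFIC peak was present at 43.3% of the SATB1 peaks in SMRC1 regions on chromosome 17 (exact interval 36.4 to 50.5) and at 38.5% on chromosome 2 (32.9 to 44.4), against 33% in all. On chromosome 1 the share was 26.4% (20.8 to 32.7). The other autosomes ranged from 23.7% on chromosome 13 to 37.4% on chromosome 5, with intervals that all included 33%, as did that of chromosome 2. These are counts in single libraries, and the chromosomes were singled out after their values were seen.

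Chromosomes 2, 6, 14, 16, 17 and 20 together, which had the highest background in an earlier look at these lists, carried 389 of the 854 sites (45.6%, 42.2 to 49.0), against 40% of the SATB1 list. The share was 37.9% (35.6 to 40.2) of the SATB1 peaks at SMRC1 sites without NFIC. The same chromosomes held 32.4% of all SMRC1 and 35.3% of all NFIC peaks. The choice of these chromosomes fixes the direction of the next values, which are given as a description. Median background at shared sites there and elsewhere was 12.5 against 7.59 for SATB1, 15 against 9.0 for SMRC1 and 15 against 8.93 for NFIC. Median reads were 42 against 30, 106 against 69 and 55 against 39. Median folds were 3.19 against 3.72, 5.35 against 5.58 and 3.74 against 4.34. More DNA copies and more sites per copy cannot be told apart in these lists.

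**Figure D5:**
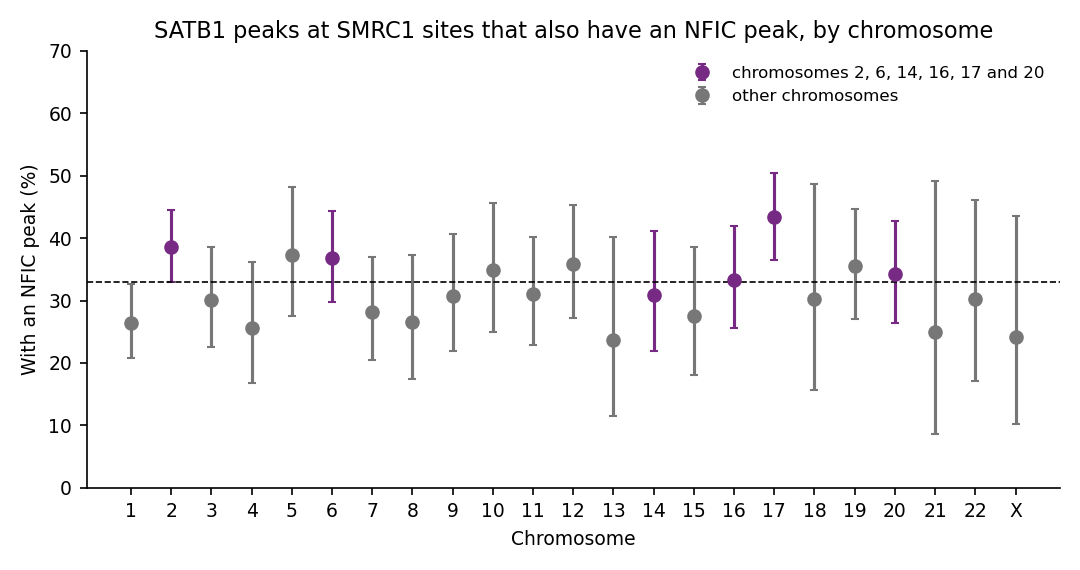
Percent of SATB1 peaks at SMRC1 sites that also overlap an NFIC peak (y axis), by chromosome (x axis, Y left out), with exact 95% intervals as bars and the 33% of all chromosomes as a dashed line. Purple marks chromosomes 2, 6, 14, 16, 17 and 20, where the points lie between 30.9% and 43.3%.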

How the data were processed

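Peak lists of 3 ChIP-seq libraries, 1 per antibody, were used. MACS2 2.1.1, Bowtie 1.1.2, deepTools and SAMtools are named, with build hg19, per the submitters' processing notes. For their settings and the control library, the sources used here give nothing. The deposited fold is a ratio of summit reads, scaled for depth, to local background, with 1 added to each. The −log10 q and −log10 p deposited beside it were written by the peak caller, and the deposited score is 10 times −log10 q, rounded down in nearly all peaks. The lists carry no total reads, so absolute depth is unknown.

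Peaks overlapped when they shared at least 1 bp, and the partner was the overlapping peak with the highest −log10 q. Reads and background were recovered by solving the fold and Poisson p-value expressions of MACS2 together. Reads were taken as whole within 0.05 and backgrounds under 1 fragment were not taken. This solved 29440 of 29441 SMRC1, 3294 of 3296 SATB1 and 13637 of 13643 NFIC peaks. SATB1 backgrounds are in units of its scaled control. In a simulated test of 3000 peaks the method found 100% of reads. Those peaks were made from the same expressions, so the test checks the solving only. It cannot show that the deposited values follow these expressions. Percentiles are ranks by −log10 q in a whole list. Intervals are exact Clopper-Pearson 95%.

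Sites were named by rank sum (12), fold (3 per list), summit span (3), width (1), smallest overlap or gap (3 each) and the densest 10 kb cluster. Other clusters, bands and chromosomes were named after their values were seen. Members, lists and rules were chosen with earlier results of these data known. Gene starts, motifs and gene lists were planned, but no hg19 annotation or sequence was used here, so none were analysed and no sequence is printed. Chromosome bands came from circlize 0.4.16 and lengths from GenomeInfoDb 1.38.1. Calculations used scipy 1.17.1, pandas 2.3.3 and numpy 2.4.6 in Python 3.11.15, and plots matplotlib 3.10.9.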

Additional observations from a re-analysis of the deposited data

How the results depend on the processing

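Of 108 values recomputed for 14 results, 82 stayed within the exact 95% interval of the value (for medians, by order statistics) or, for the count, within 1.5 times. The count of 854 fell to 420 at a −log10 q of at least 5 in each list and to 465 without chromosomes 2, 6, 14, 16, 17 and 20, where fewer peaks enter by construction. It was 738 with the SATB1 summit inside both other peaks, 723 with 50% of the SATB1 peak covered by each, 852 with 1 base common to all 3 peaks, 826 at a −log10 q of at least 2 and 841 counted as NFIC peaks. At a −log10 q of at least 5, median summit distances were 71 bp (SATB1 to SMRC1), 95 bp (SATB1 to NFIC) and 76.5 bp (SMRC1 to NFIC), median folds 3.73 (SATB1) and 4.23 (NFIC), and median SATB1 width 435.5 bp. With 50% coverage the distances were 75 bp (SATB1 to SMRC1) and 96 bp (SATB1 to NFIC), and the NFIC fold 4.19. With the summit inside both, SATB1 to NFIC was 91 bp. Without the 6 chromosomes the median fold was 3.72 for SATB1 and 4.34 for NFIC. The share with NFIC in the highest quintile by SMRC1 strength was 53.2% with 50% coverage, 52.4% at a −log10 q of at least 5 and 51.0% without the 6 chromosomes, and in the lowest quintile it stayed between 13.6% and 16.4% in every alternative run. The share of sites with SATB1 in its highest decile was 21.2% at a −log10 q of at least 5, where weaker SATB1 peaks are left out, and 8.60% without the 6 chromosomes. For SMRC1 it was 46.2% and 33.1% in the same 2 alternatives, and for NFIC 21.7% and 14.6%. Deciles were those of the whole lists. The alternatives for shares, and taking the partner with the nearest summit, were chosen after seeing the data. Other distances at gene starts and other motif windows were not run. No paired analysis was possible because each antibody had 1 library. With 1 library per antibody and unknown depth, a missing NFIC peak can be a site below detection.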
